A study of Schmidtea mediterranea with 60 samples.

Results

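A set of 34 transcripts was taken from the 28742 transcripts counted at planarian wounds, and each of them was at least 2-fold less abundant in control animals at 48 hours post-amputation (hpa) than at 0 hpa and kept at least 0.5 of that log2 decline in animals labelled bmp4 RNAi. The set was chosen from CPM values (counts scaled to a common library total) as x = log2(mean CPM of 5 libraries + 0.5). In control libraries x had to be lower by 1 or more at 48 hpa than at 0 hpa, it had to stay within 1 of its 0 hpa value at 3, 6, 16 and 24 hpa, and each library at 48 hpa had to lie below each library at 0 hpa. The groups labelled bmp4 RNAi entered at 0 hpa, where x had to lie within 0.6 of control, and at 48 hpa, where the change had to be at least 0.5 times that in control. The 5 control libraries at 0 hpa also had to lie within 4-fold of each other. The groups labelled bmp4 RNAi at 3, 6, 16 and 24 hpa played no part in the choice, so only contrasts among these 4 groups are tested below, and all other values are given as a description. The spread in these tests was estimated over all 60 libraries, including those that the rule used, so the p-values are not wholly independent of the choice.

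The animals were Schmidtea mediterranea of the clonal asexual strain CIW4 with no transgene, and all of them were fed double-stranded RNA in 4 feedings. RNA was taken from anterior-facing wounds of tail pieces cut 7 days after the last feeding, with 5 wounds pooled per replicate. The fed RNA matched bmp4 in the groups labelled bmp4 RNAi and unc-22, a nematode gene, in the control groups, and each condition was sampled right after the cut (0 hpa) and at 5 later times, 3, 6, 16, 24 or 48 hpa, with 5 replicates per group, 60 libraries in all. A replicate is a pool from a clonal stock, and the sources used here do not say whether pools came from separate cultures, so p-values measure the spread between these pools, which may be technical.

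Planarians are flatworms that rebuild missing parts from adult stem cells called neoblasts. After amputation the epidermis closes the wound, genes are switched on at the wound within hours, and, where tissue is missing, a later phase follows in which neoblasts gather, the positional genes of the body axes are reset and a blastema forms. Bmp4 belongs to the bone morphogenetic proteins, which cells secrete as signals, and patterns the dorsal side of these animals. In bulk samples fewer cells of a type and less RNA per cell cannot be told apart, which holds for every value below.

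Libraries held 5.92 to 23.9 M counts (M stands for mega) with a median of 17.3 M, and the smallest was replicate 4 labelled bmp4 RNAi at 3 hpa. Transcripts of the mitochondrial genome made up 0.195% to 0.711% of counts. The bmp4 transcript (dd_Smed_v6_17402_0_1) went against the label at 0 hpa, where it ranged between 5.83 and 8.73 CPM under the bmp4 RNAi label and between 2.58 and 3.10 CPM in control, and the ranges overlapped at 3, 16 and 24 hpa. At 6 and 48 hpa every library labelled bmp4 RNAi was below every control library. The equinox transcript (dd_Smed_v6_20318_0_1), from a gene of the wound epidermis, was lower in each library labelled bmp4 RNAi than in any control library of the same time. The libraries of the bmp4 RNAi groups are therefore called bmp4-labelled libraries, and every direction between conditions rests on that label. No list of cell type markers was checked here.

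All 34 members passed the filter on low counts, together with 18510 transcripts in all. Group means in control libraries at 0 hpa ran from 1.92 to 4982 CPM with a median of 29.8 CPM. Values of different transcripts are not comparable as levels, since no lengths were used. The annotation used here covered 1099 transcripts and 2 of the members. The first, dd_Smed_v6_10389_0_1, carries an insulin-like growth factor binding protein domain and is most similar to human IGFBP5, which in vertebrates binds insulin-like growth factors outside cells. The second, dd_Smed_v6_10485_0_1, carries an ion transport domain and is most similar to human TRPM2, a cation channel of the cell membrane. Named besides them are the members with the largest called and non-overlapping declines, dd_Smed_v6_8029_0_1 and dd_Smed_v6_12610_0_1, while the others are described without an ID because no table used here pairs them with a name. Both were chosen for their calls and non-overlapping libraries at 24 against 3 hpa, so their values in that contrast are a description and carry no exact test.

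At 48 hpa the median change from 0 hpa was -0.92 (log2) in bmp4-labelled libraries and -1.28 in control. Over all 18510 transcripts the medians were 0.11 and 0.11. The rule fixed the direction of both member values. The decline in bmp4-labelled libraries ran from 0.505 to 1.16 times that in control with a median of 0.674 times, and it was as large as in control or larger in 3 of 34 members. Nearest to the limits were a member with a control change of -1.01 inside and a transcript at -0.99 outside, and a member with a decline 0.505 times that of control inside and a transcript at 0.476 times outside. In 31 of 34 members all 5 bmp4-labelled libraries at 48 hpa were below all 5 at 0 hpa, which held for 3.32% of all transcripts. Between conditions, all 34 means at 48 hpa were higher in bmp4-labelled libraries, with a median difference of 0.57 and a range of 0.10 to 1.02. In 12 members the 5 bmp4-labelled libraries at 48 hpa did not overlap control, as in 8.76% of all transcripts in that direction. All libraries compared here entered the rule. It chose low control values at 48 hpa but asked only 0.5 times that decline of bmp4-labelled libraries. This favoured values above control at 48 hpa, so the shares over all transcripts are no test of these counts.

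**Figure D1:**
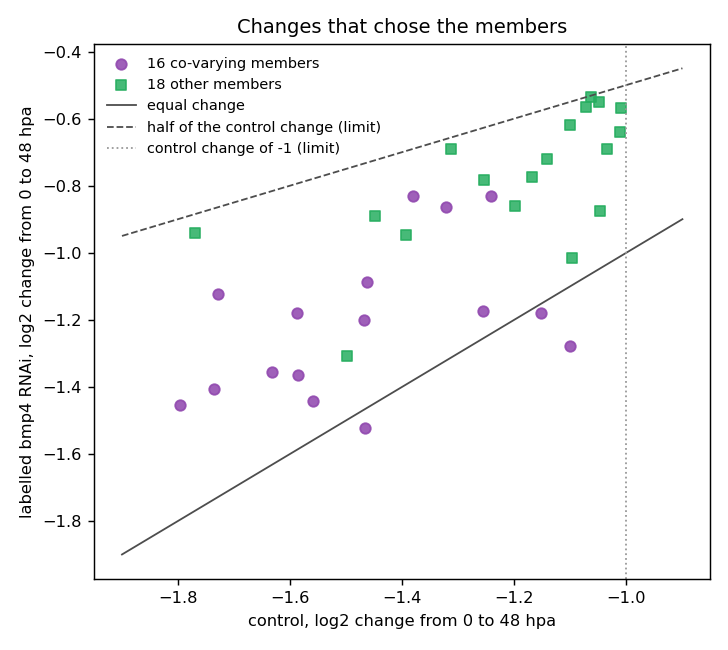
Change from 0 to 48 hpa of the 34 members in bmp4-labelled libraries (vertical axis) against control (horizontal axis), both as log2 of mean CPM + 0.5. Circles are 16 members that vary together between libraries, squares are the 18 others, the solid line marks equal change and the broken and dotted lines mark limits of the rule, and 31 of 34 members lie above the line of equal change.

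Lower values were not confined to 48 hpa. Over the 5 later times, from 3 to 48 hpa, the median change from 0 hpa was -0.37, -0.19, -0.50, -0.95 and -0.92 in bmp4-labelled libraries. In control it was 0.07, 0.24, -0.38, -0.82 and -1.28 over the same times, and in both conditions all 34 members were already below their 0 hpa mean at 24 hpa. Over all transcripts no such median was below -0.03 or above 0.11. The rule used the 0 hpa libraries of both conditions and favoured high values there. Every change measured from 0 hpa is therefore a description that the choice may have pulled down. Between 24 and 48 hpa the members changed by a median of 0.02 in bmp4-labelled libraries, with 15 of 34 lower, and by -0.58 in control, with 34 of 34 lower. The rule shaped the control side of this step, since it kept control within 1 of its start at 24 hpa and required a drop of 1 or more at 48 hpa, so the 2 conditions cannot be compared over it. At 24 hpa the difference between the conditions had a median of -0.04, with 16 members higher and 18 lower in bmp4-labelled libraries. At that time all 5 bmp4-labelled libraries lay above control in 1 member and below control in 1 member, against 6.79% and 3.92% of all transcripts.

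The members held 2 patterns. Deviations of each library from its group mean were compared over the 60 libraries, and 16 members varied together, with a median pairwise Pearson's r of 0.82 and Spearman's rho of 0.80. The pairwise r of the 16 ran from 0.23 to 0.99, so some of them were only loosely tied. The other 18 members had a median r of 0.12 and rho of 0.09, and fell into 14 clusters of at most 4. The points share their libraries, and the division was made after the values had been seen, so it is a description. The 16 co-varying members include the IGFBP-like dd_Smed_v6_10389_0_1 and took 0.268% to 3.49% of each library, and the other 18 include the remaining named members and took 0.0575% to 0.163%. Among all tested transcripts 39 had an r above 0.8 with the mean of the 16, 12 of them from the 16 itself. Those 12 are part of that mean, which raises their r, so it cannot be compared with that of outside transcripts. None of 46 transcripts that met every limit but the last of the rule had an r above 0.8, and the highest r among those was 0.31.

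The co-varying members had lower median changes in bmp4-labelled libraries than in control from 3 to 24 hpa, a difference that was not tested. Their median change from 0 hpa, over the 5 later times in order, was -0.63, -0.19, -0.63, -1.28 and -1.19 in bmp4-labelled libraries. Control gave 0.25, 0.45, -0.16, -0.83 and -1.47. At 3 hpa all 16 were below their 0 hpa mean in bmp4-labelled libraries and above it in control. They also started higher, by a median of 0.44 at 0 hpa, with all 16 above control, so their changes at all later times are measured from a higher start. At 3 hpa the median difference of their levels, bmp4-labelled libraries minus control, was -0.49, with all 16 lower. At 6, 16 and 24 hpa this difference was -0.20, 0.02 and -0.13, with 15, 7 and 13 of the 16 lower. The values at 3 hpa lean on the bmp4-labelled replicates 2 and 3, which were low in these members. The median change at 3 hpa was -0.52 without replicate 2, with all 16 below their start, and -0.39 without both, with 15 of 16 below. The median difference from control was -0.33 without replicate 2 and -0.18 without both, with 14 of 16 lower each time and a range of -0.60 to 0.42 without both. Leaving these libraries out was chosen after their values had been seen.

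The other 18 members had a steadier course. Over the same 5 times their median change was -0.11, -0.19, -0.43, -0.67 and -0.75 in bmp4-labelled libraries, against -0.03, -0.34, -0.55, -0.79 and -1.12 in control. Their levels at 0 hpa had a median difference of 0.00 between the conditions. Single members ranged from -0.25 to 0.41 there, with 9 lower and 9 higher in bmp4-labelled libraries. From 6 to 24 hpa the median difference, bmp4-labelled libraries minus control, was 0.23, 0.23 and 0.14. The member farthest above its start at 3 and 6 hpa was dd_Smed_v6_8029_0_1, described below, which was above its 0 hpa mean at 3 and 6 hpa in both conditions.

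**Figure D2:**
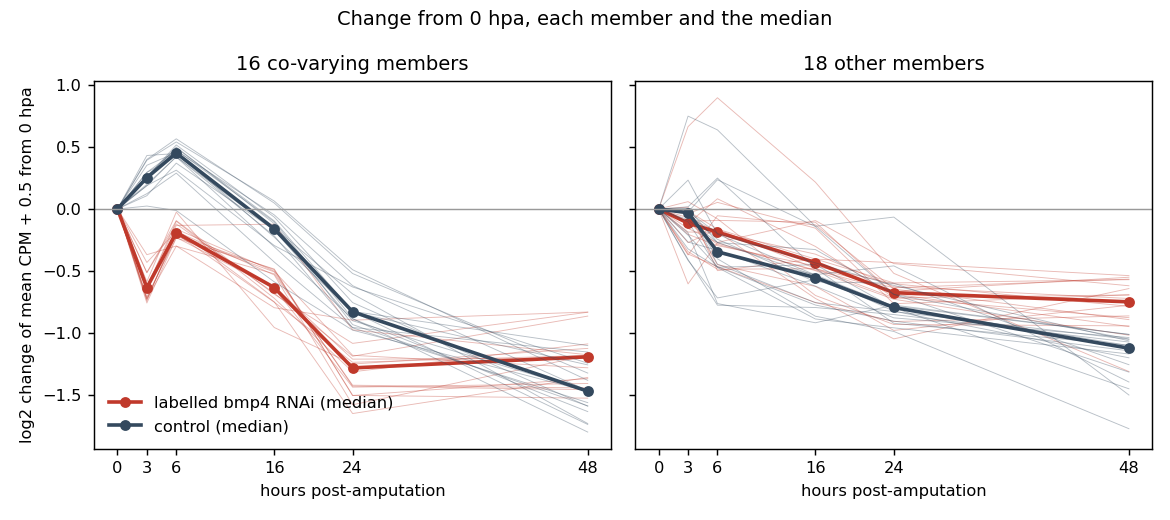
Change of log2(mean CPM + 0.5) from 0 hpa at 5 later times for the 16 co-varying members and the 18 other members. Thin lines are members, thick lines with points are medians for bmp4-labelled libraries and control, and at 3 hpa the co-varying members have medians of -0.63 and 0.25 in the 2 conditions.

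Libraries of a group were spread more widely in the co-varying members than in the others. The mean log2(CPM + 0.5) of the 16 was 8.10, 6.90, 7.50, 8.11 and 8.32 in bmp4-labelled replicates 1 to 5 at 3 hpa, so replicates 2 and 3 were low and the other 3 close together. At 24 hpa it was 7.00, 7.63, 7.02, 6.50 and 7.50, with replicate 4 lowest. The 2 groups overlap, since 7.63 in a library at 24 hpa stands above 6.90 and 7.50 at 3 hpa. In control at 48 hpa replicate 3 was the lowest of all 60 libraries at 5.51, against 6.43 to 7.06 in the other 4. The same measure over the other 18 members spanned 4.44 to 4.71 at 3 hpa and 3.75 to 4.04 at 24 hpa in bmp4-labelled libraries, with no overlap. Replicates 2 and 3 at 3 hpa held 12.6 and 14.6 M counts with mitochondrial shares of 0.294% and 0.393%, against 0.295% to 0.362% in the other 3. Replicate 4 at 24 hpa had the highest mitochondrial share of its group, 0.544% against 0.3002% to 0.378%, and control replicate 3 at 48 hpa had 0.343%, inside the range of the others. The part of depth or RNA quality in these values was not tested.

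**Figure D3:**
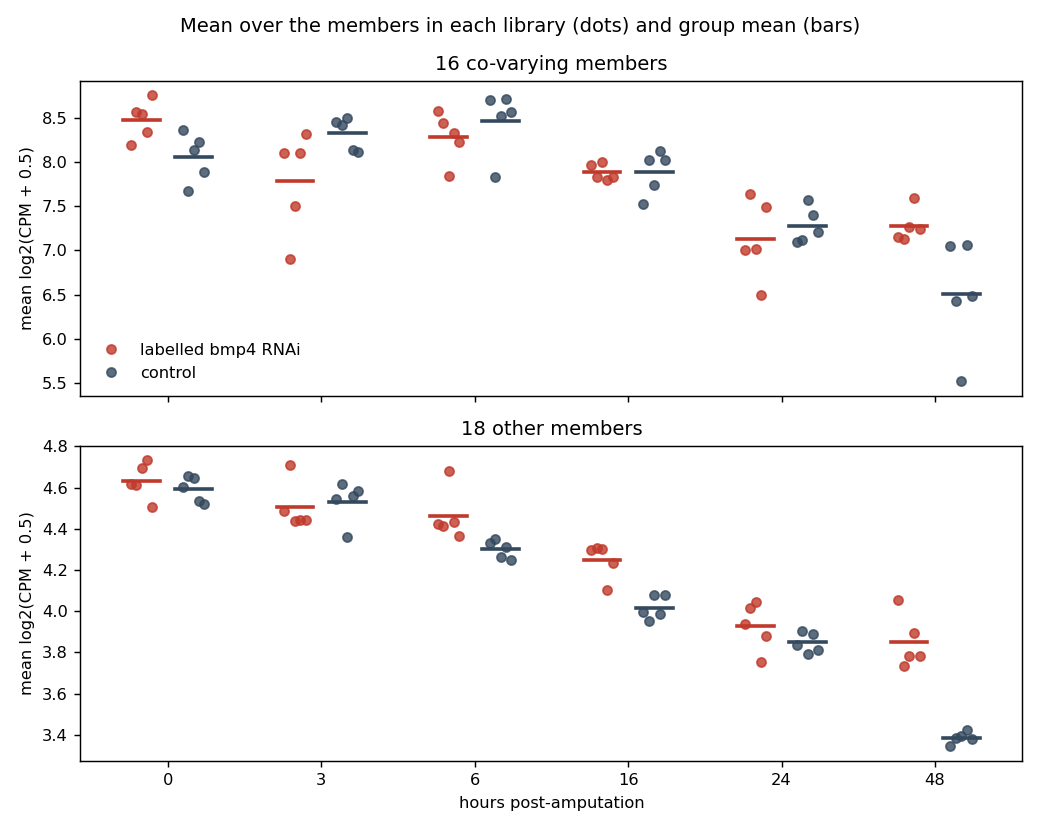
Mean log2(CPM + 0.5) over the 16 co-varying members (top) and the 18 others (bottom) in each library (dots) by hours post-amputation, with group means as bars and bmp4-labelled libraries left of control. Dots of the co-varying members spread widely in groups of both conditions. In bmp4-labelled libraries they ran from 6.90 to 8.32 at 3 hpa and from 6.50 to 7.63 at 24 hpa. In control at 48 hpa they ran from 5.51 to 7.06. Dots of the others do not overlap between 3 and 24 hpa in bmp4-labelled libraries.

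The rule left free whether the members also declined within bmp4-labelled libraries between 3 and 24 hpa. All 34 had a negative log2 fold change at 24 against 3 hpa, with a median of -0.63 and a range of -1.37 to -0.13, and 22 of 34 were called lower at an edgeR adjusted p under 0.05. Among all 18510 transcripts 7.86% were called lower and 10.6% higher, with a median of 0.01. Since 16 of the members varied together between libraries, the 34 are not independent observations, here and in the contrasts below. The shares over all transcripts are therefore no test of these counts. No member was called higher with edgeR, none was higher at an unadjusted p under 0.05, and none was with DESeq2. The calls comprised 8 of the 16 co-varying members and 14 of the 18 others. Over all 16 the median was -0.68 with a median SE of 0.26, and over all 18 it was -0.55 with a median SE of 0.14. In 9 members, all of them among the 18, the 5 libraries at 24 hpa lay below all 5 at 3 hpa, as in 4.29% of all transcripts. The count of members called lower was 14 without replicate 4 at 24 hpa and also 14 without replicate 1 at 3 hpa, and it was 27 when the low replicates 2 and 3 at 3 hpa were both left out, a choice made after seeing the data. With only the 4 groups that played no part in the choice in the fit, 16 were called lower.

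**Figure D4:**
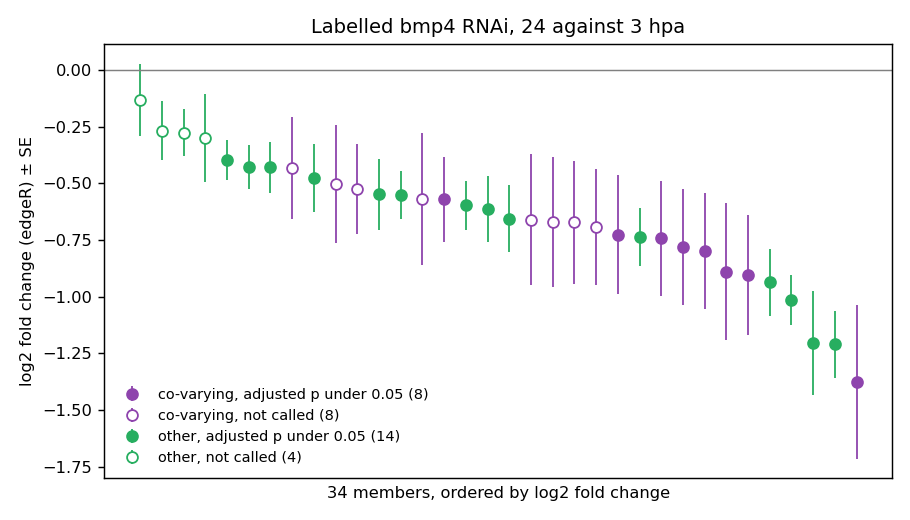
Log2 fold change of each of the 34 members in bmp4-labelled libraries at 24 against 3 hpa (edgeR, bars are ± 1 SE), ordered from the least to the most negative. Filled points are the 22 members called at an adjusted p under 0.05, open points the 12 that were not, and all 34 lie below 0.

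The interval could be divided further. At 6 against 3 hpa 1 member was called lower and none higher with edgeR, with a background of 2.14% lower and 2.46% higher and a median over the members of 0.29. At an unadjusted p under 0.05 it was 2 lower and 10 higher, and DESeq2 called 1 higher. At 16 against 3 hpa 9 members were called lower and 1 higher, against 13.1% and 13.6% of all transcripts, with a median of -0.15. The 9 were all among the 18 others, whose median was -0.26, and the 1 was a co-varying member whose call was lost in 7 of the 10 fits without a library (log2 fold change 0.53, SE 0.21, edgeR adjusted p = 0.0484). At 24 against 16 hpa 15 members were called lower and none higher, against 9.61% and 12.5%, with all 34 fold changes negative and a median of -0.44. DESeq2 called 15 lower and none higher, and at an unadjusted p under 0.05 there were 19 lower and none higher. Of the 15, 10 were co-varying members, of which all 16 had a median of -0.82, and 5 were others, of which all 18 had a median of -0.24. Leaving out replicate 4 at 24 hpa gave 9, and so did a fit with only the 4 groups that played no part in the choice.

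Since libraries at 3 hpa stand apart in the co-varying members, 24 hpa was also set against 6 hpa, a contrast chosen after the values were seen. Here 31 of 34 members were called lower and none higher with edgeR, also at an unadjusted p under 0.05, with a median of -0.96, against 11.3% lower and 12.4% higher among all transcripts. The 31 held all 16 co-varying members, with a median of -1.25, and 15 of the 18 others, with a median of -0.53 over the 18.

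The transcripts most like the members are the 46 that met the same limits in control and at 0 hpa but declined by less than 0.5 times the control change in bmp4-labelled libraries at 48 hpa. Their median change at 48 hpa was -0.25 in bmp4-labelled libraries and -1.16 in control, which the rule fixed. At 24 against 3 hpa 20 of 46 were called lower and none higher (1 higher at an unadjusted p under 0.05, none with DESeq2), with a median of -0.35. In that contrast 42 of the 46 fold changes were negative, so a negative direction was not particular to the members. At 16 against 3 hpa 26 of 46 were called lower, with a median of -0.44. At 24 against 16 hpa 4 were lower and 4 higher, with a median of 0.02. Within bmp4-labelled libraries most calls of these transcripts thus came at 16 against 3 hpa. The members had 9 calls of a lower value there and 15 at 24 against 16 hpa, but this did not hold throughout. The 18 others had 9 and 5, so they too had more calls at 16 against 3 hpa. The 16 co-varying members had 0 and 10, and their values at 3 hpa include the low replicates 2 and 3. None of these differences was tested.

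The member with the largest non-overlapping decline, dd_Smed_v6_8029_0_1, measured 6.85, 9.94, 11.5, 9.48 and 11.1 CPM in bmp4-labelled libraries at 24 hpa, against 22.9, 28.5, 23.6, 19.1 and 19.9 CPM at 3 hpa. The 5 libraries at 24 hpa all lay below the lowest at 3 hpa. The log2 fold change was -1.21 (SE 0.15, edgeR adjusted p = 5.37e-09), a contrast that was part of its choice. It was called at 16 against 3 hpa (-0.47, edgeR adjusted p = 0.00945) and at 24 against 16 hpa (-0.74, edgeR adjusted p = 0.000317). Its course began with higher values. Over the 6 times from 0 to 48 hpa the means in bmp4-labelled libraries were 14.2 ± 1.55, 22.8 ± 3.72, 26.9 ± 2.59, 16.6 ± 3.19, 9.77 ± 1.83 and 5.44 ± 1.22 CPM (SD, n = 5). Control had 14.6 ± 2.03, 24.8 ± 4.14, 23.0 ± 2.78, 13.2 ± 1.66, 13.9 ± 3.35 and 4.84 ± 1.003 CPM at the same times. The transcript was thus higher early and lower late in both conditions, and control was still close to its 0 hpa mean at 24 hpa.

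The other member chosen in this way, dd_Smed_v6_12610_0_1, was a transcript of few counts. It measured 1.14, 1.36, 1.09, 0.767 and 1.52 CPM in bmp4-labelled libraries at 24 hpa, against 2.19, 4.22, 2.19, 2.70 and 2.67 CPM at 3 hpa, and the groups did not overlap. The log2 fold change was -1.20 (SE 0.23, edgeR adjusted p = 6.58e-05), again in the contrast that chose it. It was lower at 16 against 3 hpa (-0.79, edgeR adjusted p = 0.00463), and 24 against 16 hpa gave -0.41 (edgeR adjusted p = 0.206). At 48 hpa it measured 1.72 ± 0.569 CPM in bmp4-labelled libraries, above their own 24 hpa mean of 1.17 ± 0.285 CPM, and 0.974 ± 0.267 CPM in control, where 24 hpa had 1.23 ± 0.155 CPM (SD, n = 5). In bmp4-labelled libraries the values at 48 hpa overlap those at 0 hpa.

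The TRPM2-like transcript dd_Smed_v6_10485_0_1 measured 11.5, 12.5, 14.2, 11.3 and 13.3 CPM in bmp4-labelled libraries at 24 hpa, against 18.0, 25.3, 24.95, 17.9 and 19.3 CPM at 3 hpa, again without overlap. The log2 fold change was -0.74 (SE 0.13, edgeR adjusted p = 1.34e-05). The exact two-sided permutation test gave p = 0.00794, the smallest that 5 against 5 allows, and 0.0159 adjusted over the 2 annotated members. Most of it came after 16 hpa, with -0.60 at 24 against 16 hpa (edgeR adjusted p = 0.000499) and -0.13 at 16 against 3 hpa (edgeR adjusted p = 0.473). At 48 hpa it measured 17.9, 10.1, 11.6, 10.8 and 15.7 CPM in bmp4-labelled libraries and 8.24, 8.54, 7.96, 8.81 and 10.8 CPM in control. Replicates 1 and 5 of the bmp4-labelled group were high, and the highest control library lay above the lowest of the bmp4-labelled ones. At 0 hpa the means were 21.7 ± 1.30 CPM in bmp4-labelled libraries and 22.8 ± 2.23 CPM in control (SD, n = 5 each).

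The IGFBP-like transcript dd_Smed_v6_10389_0_1 followed the co-varying members. It measured 1.27, 2.93, 1.09, 0.279 and 2.07 CPM in bmp4-labelled libraries at 24 hpa, against 6.09, 0.955, 2.13, 4.90 and 5.87 CPM at 3 hpa. Replicates 2 and 3 at 3 hpa were low, as they were for the 16 together, and overlapped the values at 24 hpa. The fitted log2 fold change was the largest of the 34, -1.37 (SE 0.34, edgeR adjusted p = 0.00241), but the exact permutation test gave p = 0.0952, and 0.0952 adjusted over the 2 annotated members. Against 16 hpa, where the 5 libraries lay between 3.31 and 4.14 CPM, 24 hpa gave -1.23 (edgeR adjusted p = 0.0069), without overlap. At 48 hpa the values were 2.42, 1.74, 2.87, 2.35 and 1.47 CPM in bmp4-labelled libraries and 2.20, 1.28, 0.551, 1.77 and 1.16 CPM in control, which overlap. At 0 hpa the means were 5.55 ± 0.969 CPM in bmp4-labelled libraries and 3.71 ± 0.849 CPM in control (SD, n = 5 each).

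**Figure D5:**
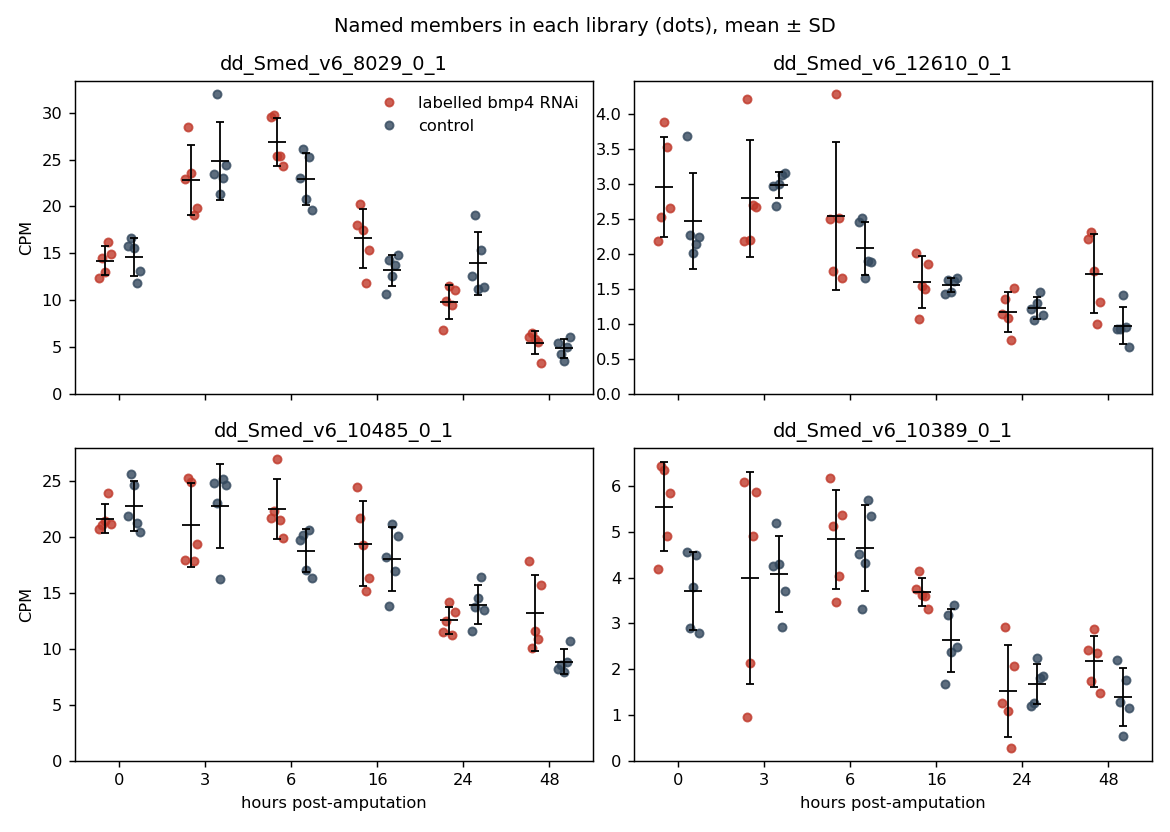
CPM of the 4 named members in each library (dots) by hours post-amputation, with bmp4-labelled libraries left of control and mean ± SD in black (n = 5). dd_Smed_v6_8029_0_1, dd_Smed_v6_12610_0_1 and dd_Smed_v6_10485_0_1 do not overlap between 24 and 3 hpa in bmp4-labelled libraries, while dd_Smed_v6_10389_0_1 does.

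A few members without a name show how much the replicate spread weighs, and they were picked after their values were seen. The member with the most counts, a co-varying one, averaged 3177 CPM in bmp4-labelled libraries at 24 hpa and 4719.6 CPM at 3 hpa, but its log2 fold change of -0.57 (SE 0.29) was not called (edgeR adjusted p = 0.178). The co-varying member with the next most counts measured 2096, 3589, 2409, 1149 and 2779.8 CPM in bmp4-labelled libraries at 24 hpa, against 4602, 2026, 3096, 5329 and 5871 CPM at 3 hpa. Replicates 2 and 3 at 3 hpa and replicate 4 at 24 hpa were low again, and the log2 fold change was -0.80 (SE 0.26, edgeR adjusted p = 0.0228). In contrast, the member with the smallest adjusted p, one of the 18, measured 10.2, 8.37, 9.12, 9.27 and 8.13 CPM in bmp4-labelled libraries at 24 hpa, against 17.0, 21.3, 19.5, 17.6 and 16.7 CPM at 3 hpa (log2 fold change -1.02, SE 0.11, edgeR adjusted p = 1.14e-10). This last member had already reached 10.7 ± 1.35 CPM at 16 hpa and stood at 8.95 ± 1.16 CPM at 48 hpa in bmp4-labelled libraries, against 9.61 ± 1.51 and 4.90 ± 0.578 CPM in control (SD, n = 5). Among the 18, the member with the most counts measured 535, 472, 581, 413 and 409 CPM in bmp4-labelled libraries at 24 hpa, against 578, 824, 692, 582 and 596 CPM at 3 hpa, with a single pair of libraries overlapping (log2 fold change -0.43, SE 0.10, edgeR adjusted p = 0.000939).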

How the data were processed

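The authors mapped short reads with bowtie to the dd_Smed_v6 transcriptome, counted reads per contig with coverageBed and summed isotigs, and they deposited raw read counts per transcript in 60 columns. The submitters' processing notes name CASAVA 1.9, cutadapt 1.8, Bowtie 1.2, SAMtools 1.6 and DESeq. The sources do not state whether counting used strand, so transcripts with near-identical copies or antisense partners are uncertain. No genome positions or sequences were used here. Total counts per library were 5.92 to 23.9 M (mega). No pair of libraries within a group agreed within sampling noise (smallest chi-square per degree of freedom 3.21).

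CPM for the rule used library totals. Tests used edgeR 4.0.16 in R 4.3.3 (limma 3.58.1), with filterByExpr (minimum count 10, minimum total 15), TMM scaling, a robust quasi-likelihood fit with 12 group means over 60 libraries and Benjamini-Hochberg adjustment over 18510 transcripts. The study itself compared groups in pairs with DESeq. Exact permutation tests of the annotated members used log2(CPM + 0.5) over 252 splits. Co-varying members were found by average linkage on 1 minus Pearson's r of deviations from group means of log2 CPM (prior count 2), with a distance limit of 0.6. On simulated data for 24 against 3 hpa (18510 transcripts, 200 changed), 94% of 2-fold and 98% of 4-fold changes were recovered. The changed transcripts were drawn from those above a floor on the mean count, and transcripts varied independently of each other. These rates therefore need not hold for members with few counts or for the co-varying members.

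Named members were the 2 largest called falls and the 2 largest called rises at 24 against 3 hpa without overlap (no rise qualified), annotated members, bmp4 and equinox. The members and lists were chosen with earlier results of these data known. Alternatives were other scalings, DESeq2 1.42.0, pseudocounts, filters, fits and left-out libraries, 3 of them chosen after seeing the data. With 2 annotation tables at hand, the one whose older IDs matched was used for names only.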

Additional observations from a re-analysis of the deposited data

Results flagged for a closer look

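Within groups of 5 libraries, the gap between an extreme library and its nearest neighbour was set against the range of the group, with a limit of 0.71, for the means of the co-varying and other members and for the 4 named members in 12 groups. Of 72 such checks 10 passed the limit, where chance gives about 1 in 20. For the co-varying members (mean log2(CPM + 0.5)) a bmp4-labelled library at 48 hpa was high at 7.60, and a control library at 6 hpa was low at 7.83. For the other members a bmp4-labelled library was high at 3 hpa (4.71) and at 6 hpa (4.68), and a control library was low at 3 hpa (4.36). The library high at 3 hpa was replicate 2, which was also the lowest of its group in the co-varying members. In dd_Smed_v6_8029_0_1 a bmp4-labelled library at 48 hpa was low at 3.33 CPM. In dd_Smed_v6_12610_0_1 a bmp4-labelled library at 3 hpa was high at 4.22 CPM and a control library at 0 hpa was high at 3.69 CPM. In dd_Smed_v6_10485_0_1 a bmp4-labelled library at 0 hpa was high at 23.9 CPM and a control library at 3 hpa was low at 16.2 CPM.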

How the results depend on the processing

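The rule gave 34 members with library totals, 50 with TMM and 51 with DESeq2 size factors (33 of the 34 among them each time), 32 and 31 with pseudocounts of 0.25 and 1, 30 with medians of replicates (22 of the 34 among them), and 30 to 39 without single libraries. TMM lowered the change from 0 to 48 hpa of all transcripts by a median of 0.10 (log2) in bmp4-labelled libraries and 0.13 in control, and moved the members' median in control at 48 hpa to -1.41. The counts of members lower were 14 to 27 at 24 against 3 hpa, 9 to 16 at 24 against 16 hpa, 8 to 10 at 16 against 3 hpa and 1 to 2 at 6 against 3 hpa when single libraries were left out, and those higher were 0 to 1 at 16 and at 6 against 3 hpa. With only the 4 groups in the fit, 9 members were lower at 24 against 16 hpa and 16 at 24 against 3 hpa. DESeq2 called 1 member higher at 6 against 3 hpa. The 1 member higher at 16 against 3 hpa became 0 with no filter on low counts, with the replicate block and without both low libraries at 3 hpa. No clear pairing by replicate number was seen among the bmp4-labelled groups at 3 to 24 hpa, the only ones checked. Deviations of same-numbered libraries correlated from -0.25 to 0.42, the highest being replicate 3 at 6 and 24 hpa, so some pairing is not excluded. With the replicate block 20 members were lower at 24 against 3 hpa and 15 at 24 against 16 hpa. The 4 named members stayed called in every alternative, with log2 fold changes of -1.70 to -1.12 (dd_Smed_v6_10389_0_1), -1.27 to -1.10 (dd_Smed_v6_8029_0_1), -1.33 to -1.02 (dd_Smed_v6_12610_0_1) and -0.78 to -0.67 (dd_Smed_v6_10485_0_1) without single libraries. The causes of these shifts were not tested. Counting error is large in the members with few counts, the lowest value being 3 counts in a library.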
